A study of Mus musculus with 17 samples.

Results

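The 9 platelet and megakaryocyte genes described here are Ppbp, Pf4, Mmrn1, Treml1, Itga2b, Gp9, Gp5, Gp6 and Clec1b, of 18193 genes with a probe set on the array that the platform annotation gives to 1 gene symbol. They had 10 probe sets among 34945 such probe sets, 1 each and 2 for Mmrn1. They were read on all 17 arrays of sorted mouse skeletal stem cells (mSSCs) and of bone, cartilage and stromal progenitors (mBCSPs), which descend from mSSCs. All arrays were from female C57BL/6 mice. OVX mice had both ovaries removed at 8 weeks of age, and sham mice had the operation without removal. OVX + E2 mice also received a pellet releasing 17β-estradiol at ovariectomy. Femora were fractured and pinned 6 weeks later, at 14 weeks of age, and callus and uninjured femoral shafts were taken 7 days after fracture. Callus gave 2 arrays from OVX + E2 mice, 2 from OVX mice and 4 from sham mice. A further 2 callus arrays have labels that conflict, OVX in the title and sham in the treatment field, and 2 callus arrays carry no label of ovary surgery, so both pairs formed groups of their own. Uninjured bone gave 2 arrays from OVX mice and 3 from sham mice. The sort took cells without CD45, Ter119 and Tie2, the surface marks of leukocytes, red cells and endothelium. The labels do not say that the arrays of a group came from separate mice, so p-values are not taken to measure spread between mice.

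The titles take 3 forms, which no source calls a batch. They are condition-first (6 arrays, all of callus), 3-letter (7 arrays, callus and uninjured) and population-first (4 arrays, callus and uninjured). The form was a term in the fit, which leaves sham callus against sham uninjured bone resting on 1 uninjured array, that of sham mSSCs with the 3-letter title. That array is named in full wherever a result turns on it. Medians of the deposited log2 signal were 7.67 to 7.88 on the 17 arrays, and rank correlations between arrays over all probe sets ran between 0.591 and 0.977.

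Megakaryocytes are the large marrow cells that shed platelets, and platelets carry RNA made in the megakaryocyte. Platelets hold ready-made proteins in alpha granules, adhere through receptors for von Willebrand factor and collagen, and aggregate through a receptor for fibrinogen. At a fracture they enter the clot that precedes callus. Of the 9 genes, Ppbp and Pf4 encode alpha granule chemokines, and Mmrn1 encodes multimerin 1, a granule protein that binds coagulation factor V. Treml1 encodes a granule membrane receptor that moves to the surface of activated platelets. Itga2b encodes the alpha chain of the fibrinogen receptor (CD41), Gp9 and Gp5 encode subunits of the receptor complex for von Willebrand factor, Gp6 encodes a collagen receptor, and Clec1b encodes CLEC-2, the receptor for podoplanin. Itga2b is also made by early hematopoietic progenitors and Mmrn1 by endothelial cells.

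All 9 genes had a promoter window in RefSeq (build GRCm38.p6), from 250 bases before to 50 bases after a start site. For 7 genes that site is the outer end of the RefSeq gene, and for Gp9 and Gp6 it lies 1939 and 107 bases inside the gene. Megakaryocyte genes are classic targets of GATA1 and of ETS factors, so the windows were searched on both strands for GATAA and for CCGGAA, which do not overlap. The 4 windows below are a selection from those of the 9 genes, with matches in capitals. Those of Ppbp (chr5:90768268-90768567, plus strand) and Pf4 (chr5:90772185-90772484, plus strand) belong to neighbouring genes with 2371 bases between them, and those of Mmrn1 (chr6:60944067-60944366, plus strand) and Clec1b (chr6:129397047-129397346, plus strand) lie on another chromosome.
Ppbp: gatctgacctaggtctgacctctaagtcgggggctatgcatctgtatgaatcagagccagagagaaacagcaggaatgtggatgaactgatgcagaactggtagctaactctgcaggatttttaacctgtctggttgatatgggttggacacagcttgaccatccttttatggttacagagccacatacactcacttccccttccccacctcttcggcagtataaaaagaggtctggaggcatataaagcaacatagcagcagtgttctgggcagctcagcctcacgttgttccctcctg
Pf4: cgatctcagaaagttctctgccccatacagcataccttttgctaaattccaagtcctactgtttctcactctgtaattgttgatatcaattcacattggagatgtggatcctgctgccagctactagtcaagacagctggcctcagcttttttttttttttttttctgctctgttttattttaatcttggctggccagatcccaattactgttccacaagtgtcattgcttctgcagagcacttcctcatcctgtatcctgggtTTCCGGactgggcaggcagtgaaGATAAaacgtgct
Mmrn1: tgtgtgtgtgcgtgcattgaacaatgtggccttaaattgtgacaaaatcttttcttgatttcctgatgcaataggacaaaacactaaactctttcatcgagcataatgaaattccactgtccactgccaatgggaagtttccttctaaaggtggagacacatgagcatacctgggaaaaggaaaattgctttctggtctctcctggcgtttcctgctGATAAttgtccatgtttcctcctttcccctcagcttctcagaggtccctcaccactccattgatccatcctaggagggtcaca
Clec1b: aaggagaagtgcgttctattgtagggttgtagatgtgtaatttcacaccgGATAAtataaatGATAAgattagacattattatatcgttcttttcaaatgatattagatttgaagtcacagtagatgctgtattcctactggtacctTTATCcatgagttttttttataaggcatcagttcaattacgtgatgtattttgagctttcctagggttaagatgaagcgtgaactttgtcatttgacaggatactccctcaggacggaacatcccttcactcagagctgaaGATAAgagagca
The Pf4 window held 1 GATAA, 37 bases after the start, and 1 CCGGAA on the other strand, while the Ppbp window held neither. The windows of Treml1 and Itga2b, which are not shown, also held neither. Mmrn1 had 1 GATAA, 33 bases before the start, and Clec1b had 4. Of the 9 genes 6 had a GATAA in the window, 4 of 7 without Gp9 and Gp6, against 25.4% of 32851 RefSeq windows of the same length, and 1 had a CCGGAA, against 14.9%. A match is a run of letters and not a measured site.

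Signal is given as log2 after quantile normalization, with a floor at 5.95, the 20th percentile of all values. A value at the floor says only that the probe set was at or below it, and levels are compared between arrays for 1 probe set, never between genes. Genes at or above log2 7.20 on at least 2 arrays were tested, 14504 of 18193, and 7 of the 9 genes were among them. Gp5 and Gp6 each reached that level on 1 array alone and were not tested. Calls were made by limma, with p-values adjusted after Benjamini and Hochberg over the 14504 genes and a threshold of 0.05. The fit had terms for group, population and title form. Its residual spread was only that of the mSSC to mBCSP difference over 8 pairs of arrays. Spread between arrays of 1 group with different title forms was taken up by the form term. That spread enters no SE, interval or p-value of this fit.

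**Figure D1:**
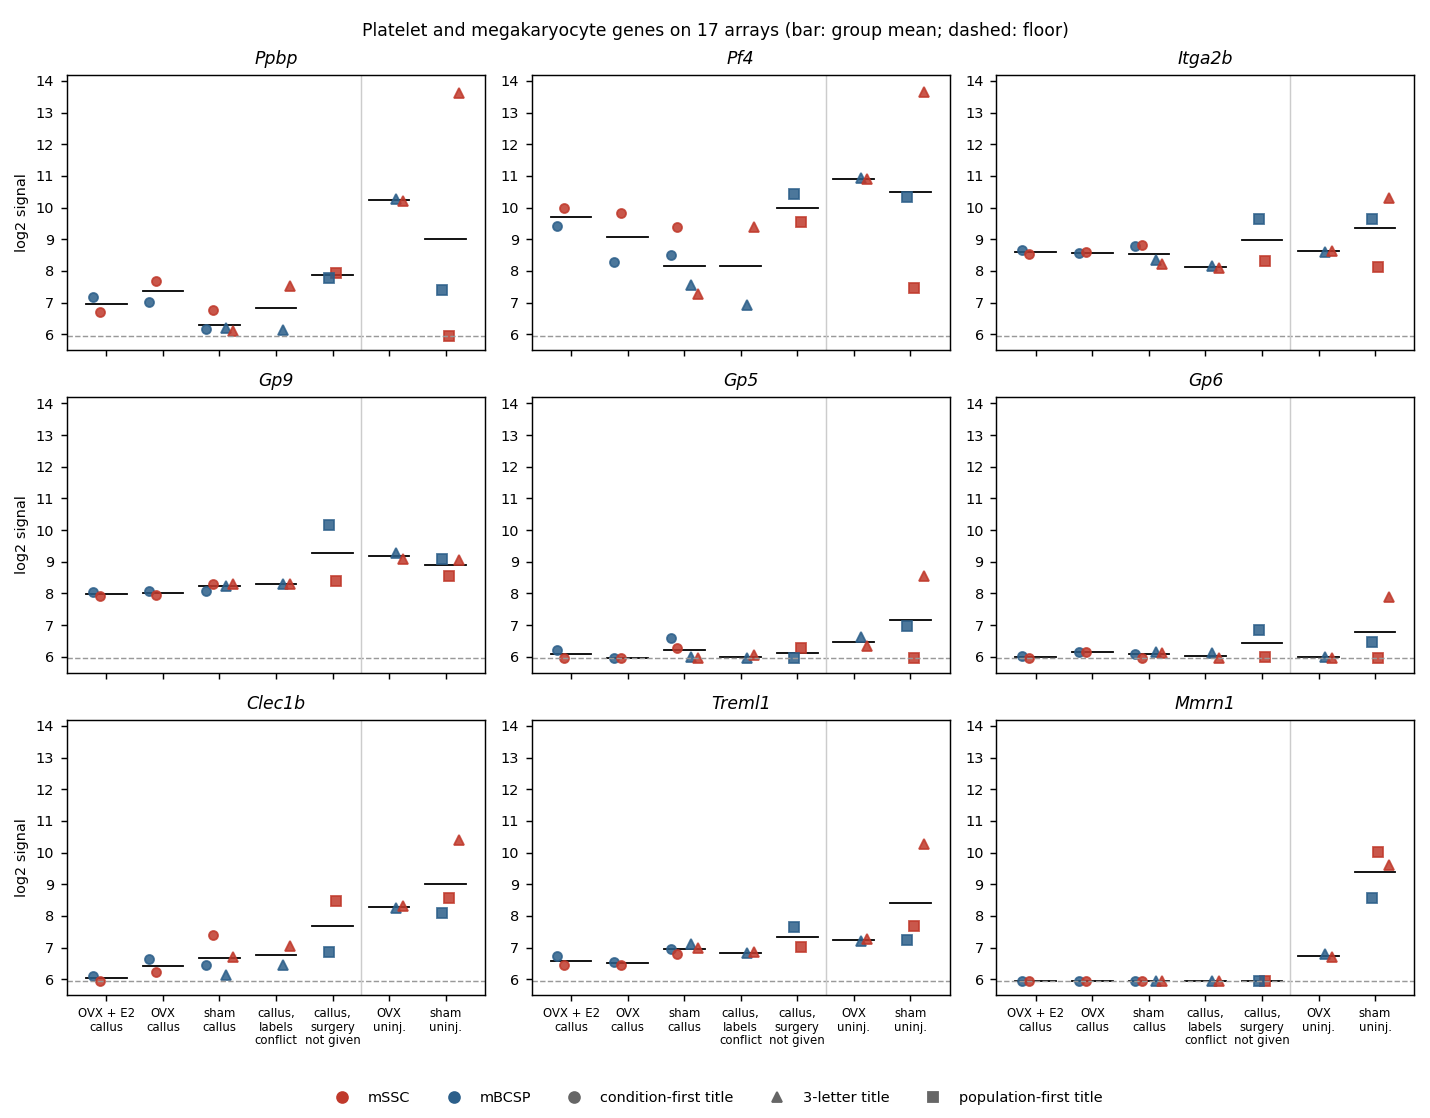
Log2 signal (vertical axis) of the 9 genes on each of 17 arrays, by group, with callus left of the grey line and uninjured bone right of it; points are arrays, coloured by population and shaped by title form, bars are group means and the dashed line is the floor at 5.95. The sham mSSC array of uninjured bone with the 3-letter title (the red triangle at the far right) was highest for all but Gp9 and Mmrn1, and all 12 callus arrays stood at the floor for Mmrn1.

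The alpha granule chemokines covered the widest range. Ppbp stood at 7.18 and 6.70 on the mBCSP and mSSC arrays of OVX + E2 callus, at 7.02 and 7.69 in OVX callus, and at 6.16, 6.77, 6.19 and 6.09 in sham callus. It stood at 6.13 and 7.53 in callus of conflicting labels and at 7.77 and 7.94 in callus of unstated surgery. In uninjured bone it was 10.27 and 10.21 on the OVX arrays, and 7.41, 13.62 and 5.95 on the sham arrays. The 12 callus arrays thus lay between 6.09 and 7.94, while the 3 sham arrays of uninjured bone ran from the floor to the highest value of all, with both OVX arrays between. The 3 uninjured arrays with 3-letter titles were the 3 highest, and the 2 with population-first titles lay within or below the callus range.

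Pf4 showed the same order at the top. It stood at 9.41 and 9.99 in OVX + E2 callus, at 8.29 and 9.82 in OVX callus, and at 8.49, 9.39, 7.54 and 7.26 in sham callus. Callus of conflicting labels had 6.92 and 9.38, and callus of unstated surgery had 10.43 and 9.53. Uninjured bone had 10.92 and 10.89 on the OVX arrays, and 10.34, 13.64 and 7.46 on the sham arrays. Callus and uninjured arrays overlapped, with the population-first sham mSSC array of uninjured bone below 10 of the 12 callus arrays. Over the 17 arrays, which share a platform, Pf4 and Ppbp had a Pearson r of 0.892 and a Spearman rho of 0.875. Without the 3-letter sham mSSC array of uninjured bone r was 0.806, and over the 12 callus arrays it was 0.792.

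**Figure D2:**
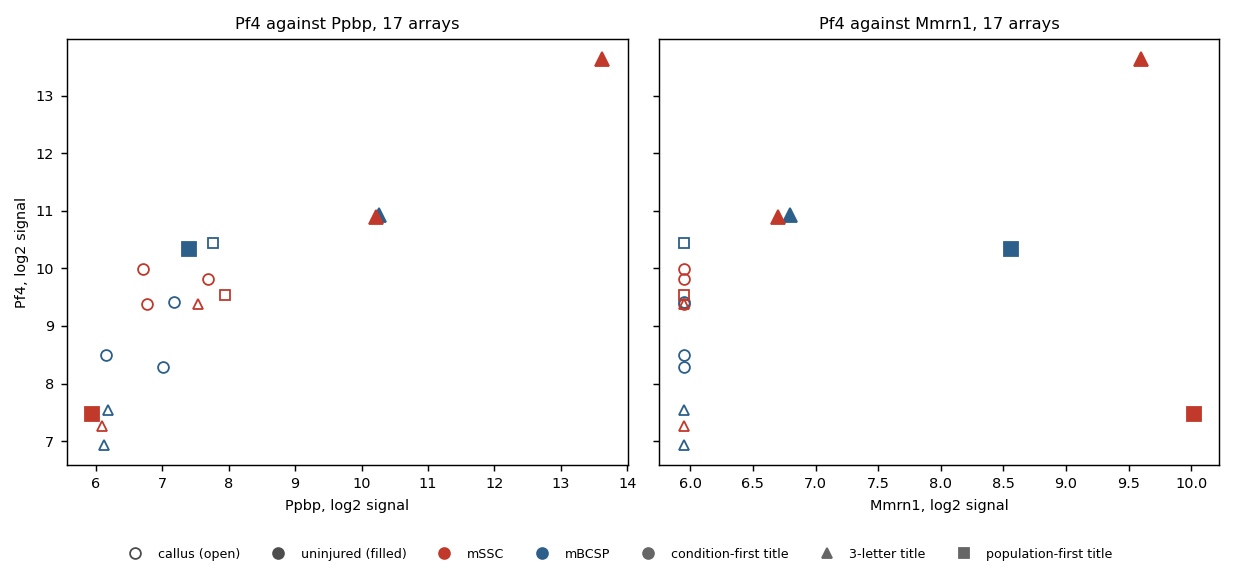
Log2 signal of Pf4 (vertical axes) against that of Ppbp (left) and of Mmrn1 (right), 1 point for each of 17 arrays, open for callus and filled for uninjured bone, coloured by population and shaped by title form. Pf4 and Ppbp lie along a line (r = 0.892), while the population-first sham mSSC array of uninjured bone had the highest Mmrn1 signal (10.02) and a Pf4 signal (7.46) below 10 of the 12 callus arrays.

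Mmrn1 separated the 2 tissues. The probe set of highest mean was at the floor on all 12 callus arrays. In uninjured bone it stood at 6.79 and 6.70 on the OVX arrays and at 8.56, 9.59 and 10.02 on the sham arrays. No uninjured array reached as low as callus, and both OVX arrays lay below all 3 sham arrays. Mmrn1 was the only one of the 7 tested genes lower on all 12 callus arrays than on all 5 uninjured arrays, a pattern that 7.03% of the 14504 genes had. It reached the filter on 3 arrays alone, the sham arrays of uninjured bone, so it was tested only through the group where it was high, and its calls against that group are descriptions of that gap. The other probe set of Mmrn1 was at the floor on all 17 arrays and does not bear on this. In bulk RNA fewer cells of a type and less RNA per cell cannot be told apart.

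Treml1 ran from 6.44 to 7.66 on the 12 callus arrays, with a median of 6.84. In uninjured bone it stood at 7.22 and 7.27 on the OVX arrays and at 7.23, 10.27 and 7.69 on the sham arrays. Apart from the 3-letter sham mSSC array, the uninjured arrays lay within or just above the callus range.

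Among the receptors of the platelet surface, Itga2b ran from 8.09 to 9.63 in callus (median 8.55), and stood at 8.59 and 8.64 in OVX and at 9.64, 10.31 and 8.11 in sham uninjured bone. Gp9 ran from 7.93 to 10.17 in callus (median 8.27), and stood at 9.28 and 9.10 in OVX and at 9.09, 9.07 and 8.54 in sham uninjured bone. Both overlapped between the tissues, and the highest Gp9 signal of all was that of the mBCSP array of callus of unstated surgery. Clec1b ran from the floor to 8.48 in callus (median 6.55), and stood at 8.25 and 8.31 in OVX and at 8.08, 10.40 and 8.56 in sham uninjured bone. Of the callus arrays, the mSSC array of unstated surgery alone reached into the uninjured range of Clec1b. Gp5, at the floor on 6 arrays, and Gp6, at the floor on 5, were dim except on the 3-letter sham mSSC array of uninjured bone, where they stood at 8.55 and 7.895, against at most 6.97 and 6.86 on the other 16.

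The question that sham callus against sham uninjured bone addresses is what the sorted cells express after fracture. In the limma fit 6 of the 7 tested genes fell in sham callus and 0 rose, where 24.4% of all genes tested were called in either direction and 10.1% were called lower. Of the 6, Mmrn1 passed the filter only on the sham arrays of uninjured bone, so its call describes that gap. Treml1 passed the filter on 6 arrays, none of them of sham callus. The median log2 fold change was -3.56 over the 7 genes and 0.12 over all 14504. Ppbp had -7.44 (SE 0.66, adjusted p = 5.73e-05) and Pf4 had -6.16 (SE 1.17, adjusted p = 0.0034). Clec1b had -3.76 (SE 0.53, adjusted p = 0.000646), Treml1 -3.28 (SE 0.35, adjusted p = 0.000137) and Itga2b -2.22 (SE 0.54, adjusted p = 0.012). Mmrn1 had -3.56 (SE 0.45, adjusted p = 0.000344), a size that the floor in callus sets in part, with -2.90 to -4.73 over the alternatives. Gp9 had -0.95 (SE 0.53, adjusted p = 0.23) and did not pass. All of these rest on the 3-letter sham mSSC array of uninjured bone, without which the comparison cannot be estimated with the form term. Without that array and without the term, 2 of 7 genes were called, Clec1b and Mmrn1. There Ppbp stood at -0.38, Pf4 at -0.73, Treml1 at -0.50 and Itga2b at -0.33. Over the 3 sham arrays of uninjured bone Ppbp had an SD of 4.07. The SE of 0.66 given for Ppbp holds no spread between their title forms.

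That array stood apart in part of the 9 genes, which were chosen with earlier results of these data known. It was the highest of the 17 arrays for 5 of the 7 tested genes, as it was for 4.13% of all genes tested. It exceeded every other array by at least 1 log2 unit for 14 genes, 0.0965% of those tested, and 4 of the 14 were Ppbp, Pf4, Treml1 and Clec1b. Of the list of other platelet and megakaryocyte genes described below, 0 were among the 14. The gaps to the next array were 3.36 for Ppbp, 2.72 for Pf4, 2.58 for Treml1 and 1.84 for Clec1b. On the other arrays between 0 and 256 genes led by that much, and none of the 9 genes was among them. Its mean over the 9 genes was 10.37, against 6.76 to 7.92 on callus arrays and 7.58 to 8.22 on the other 4 uninjured arrays.

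Within the 7 arrays with 3-letter titles, all 7 tested genes were lower on each of the 4 callus arrays than on each of the 3 uninjured arrays, as were 21.5% of all genes tested. Mmrn1 passed the filter only on the sham arrays of uninjured bone, so its place in that count was not independent. Among the 3-letter arrays the callus of conflicting labels can be set against OVX uninjured bone. This comparison was added after the data were seen and does not use the 3-letter sham mSSC array. Its callus carries sham in the treatment field. If that label is right, ovary state differs along with fracture, and their effects cannot be told apart. Of the 7 genes 2 fell and 0 rose, where 13.2% of all genes were called and 4.05% were called lower. Ppbp had a log2 fold change of -3.41 (SE 0.53, adjusted p = 0.00272), -4.14 between the mBCSP arrays and -2.68 between the mSSC arrays. Clec1b had -1.53 (SE 0.42, adjusted p = 0.0374), -1.80 and -1.25 in the same order. Pf4 had -2.76 (SE 0.94, adjusted p = 0.0794), Gp9 -0.88 (adjusted p = 0.194), Mmrn1 -0.80 (adjusted p = 0.164), Itga2b -0.50 and Treml1 -0.40. The median was -0.88 over the 7 genes and -0.05 over all genes. The Clec1b call was lost on leaving out 8 of the 17 arrays in turn, and the Ppbp call on none. Both were lost without the form term, with an adjusted p of up to 0.197 for Ppbp and 0.23 for Clec1b over all settings.

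The population-first arrays gave another picture. Their callus has no label of ovary surgery, so a difference in ovary state cannot be told apart from fracture. There callus of unstated surgery was set against sham uninjured bone, 2 arrays each, and 1 of the 7 tested genes fell, where 25.2% of all genes were called and 12.5% were called lower. That gene was Mmrn1, which passed the filter through the sham uninjured group itself, with -3.34 (SE 0.36, adjusted p = 5.95e-05). The difference was -2.61 between the mBCSP arrays and -4.07 between the mSSC arrays, and the call held on leaving out any 1 array. Ppbp was higher on both callus arrays than on both uninjured arrays, but its log2 fold change of 1.17 (SE 0.53, 95% interval 0.01 to 2.34) had an adjusted p of 0.135. Without the mBCSP array of sham uninjured bone (population-first) both Ppbp, at 2.06, and Pf4, at 2.82, were called higher (adjusted p = 0.0153 and 0.0314), and without the population-first mSSC array of sham uninjured bone Ppbp stood at 0.28 and Pf4 at -0.66. Without the mSSC array of callus of unstated surgery Clec1b and Gp9 were called as well. Pf4 had 1.08 (-0.99 to 3.15), Gp9 0.47 (-0.46 to 1.41), Itga2b 0.11 (-0.84 to 1.05), Treml1 -0.12 (-0.73 to 0.50) and Clec1b -0.66 (-1.59 to 0.28). The directions of Ppbp and Pf4 turned without the form term, to -1.03 and -0.41. With the form term this comparison and that of sham callus are read from different uninjured arrays, and the difference between their changes was not tested.

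**Figure D3:**
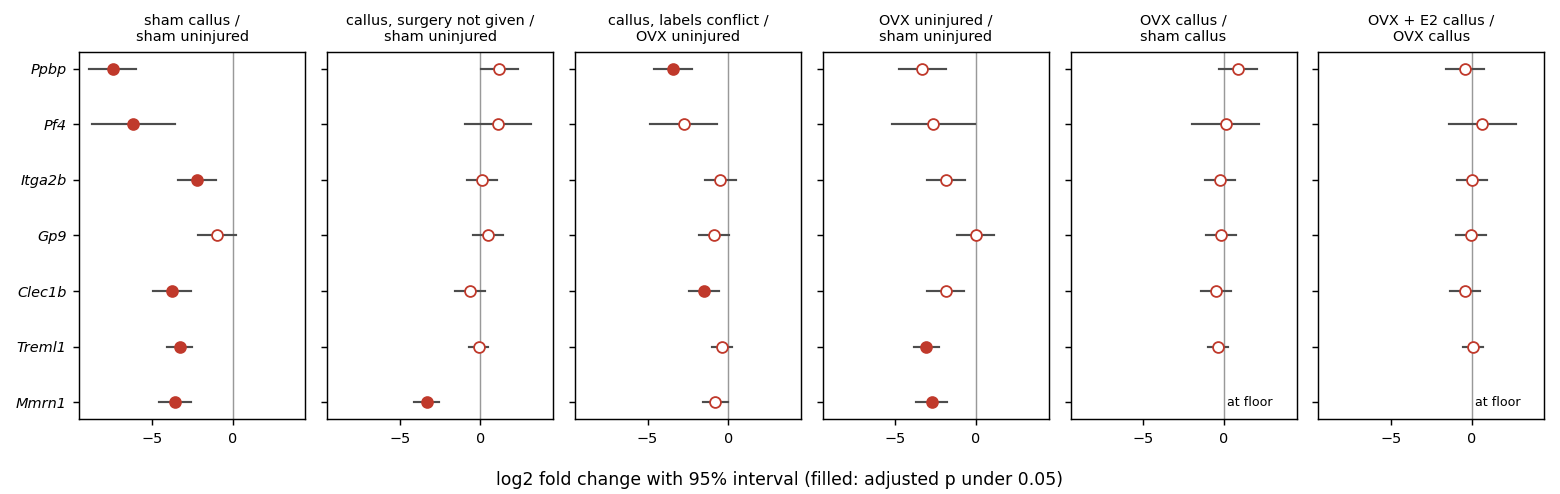
Log2 fold changes (horizontal axes) of the 7 tested genes in 6 comparisons, each with its 95% interval; filled points had an adjusted p under 0.05 in the limma fit, and the group before the slash was divided by the group after it. Ppbp stood at -7.44 in sham callus against sham uninjured bone and at 1.17 in callus of unstated surgery against sham uninjured bone, while Mmrn1 stood at -3.56 and -3.34.

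Uninjured bone had 2 OVX and 3 sham arrays, but with the form term the effect of ovariectomy there is read against 1 sham array alone. In the fit 2 of 7 genes fell in OVX uninjured bone, where 0.145% of all genes were called and 0.0138%, these 2 genes alone, were called lower. Treml1 had -3.07 (SE 0.35, adjusted p = 0.00581) and Mmrn1 -2.76 (SE 0.45, adjusted p = 0.0472). Mmrn1 passed the filter only through the sham arrays of this comparison, so its call describes that gap and its place in the count was not independent. Without the mBCSP array of OVX uninjured bone neither was called. Ppbp had -3.34 (adjusted p = 0.102), Pf4 -2.65 (adjusted p = 0.619), Itga2b -1.89 (adjusted p = 0.324), Clec1b -1.89 (adjusted p = 0.306) and Gp9 -0.03 (adjusted p = 0.995). The median was -2.65 over the 7 genes and 0.04 over all. This comparison too rests on the 3-letter sham mSSC array. Without that array and the form term, Ppbp turned to 3.56 and Pf4 to 2.01, Treml1 stood at -0.21, and Ppbp and Mmrn1 were called. Mmrn1 kept a log2 fold change of -2.54 to -2.89 over all alternatives and arrays left out that could be fitted, although its call was lost under 10 of 16 alternatives and on leaving out 12 of 16 arrays.

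In callus no platelet gene was called with ovariectomy or estradiol. OVX against sham callus gave 0 of 7 genes and 0% of all genes by limma, with 0 of 7 and 293 of 14504 at an unadjusted p under 0.05. The t-test of the study's methods gave 2 of 7, Ppbp and Treml1, before adjustment and 0 after it. Ppbp had a log2 fold change of 0.89 (SE 0.53, -0.28 to 2.06), with 0.86 between the mBCSP arrays and 0.92 between the mSSC arrays of the condition-first form. Pf4 had 0.12 (-1.95 to 2.18), Clec1b -0.50 (-1.43 to 0.43), Treml1 -0.36 (-0.97 to 0.25), Itga2b -0.23 (-1.18 to 0.72) and Gp9 -0.16 (-1.09 to 0.78). Mmrn1 was at the floor in both groups. The intervals leave room for changes of 1 to 2 log2 units.

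OVX + E2 against OVX callus gave 0 of 7 genes by limma, with 0 of 7 at an unadjusted p under 0.05, where 0.0207% of all genes were called. Pf4 had 0.65 (-1.42 to 2.71) and Ppbp -0.41 (-1.58 to 0.76), and Ppbp differed by 0.16 between the mBCSP arrays and by -0.98 between the mSSC arrays. OVX + E2 against sham callus likewise gave 0 of 7, also unadjusted, where 0.0207% were called, and the largest change was that of Clec1b, -0.90 (SE 0.42, -1.83 to 0.03, adjusted p = 1). The methods' t-test gave 0 of 7 in both. Both share the OVX + E2 arrays, and OVX against sham callus shares an arm with each. With the form term all 3 are read from the 6 condition-first arrays. The difference between the effect of OVX in callus and in uninjured bone gave 0 of 7 genes by limma, with 4 of 7 at an unadjusted p under 0.05, where 0.0276% were called, with 2.71 for Treml1 (adjusted p = 0.135) and 4.23 for Ppbp (adjusted p = 0.318). It rests on the 3-letter sham mSSC array as well.

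The 2 sorted populations did not differ in a called platelet gene. mSSCs against mBCSPs gave 0 of 7 genes and 0% of all genes, with 1 of 7 and 1401 of 14504 at an unadjusted p under 0.05. In the 8 pairs of arrays of 1 group and form, Clec1b was higher in mSSCs in 6 and lower in 2, with a log2 fold change of 0.47 (SE 0.21, adjusted p = 0.513). Itga2b was higher in mSSCs in 3 and lower in 5, with -0.38 (SE 0.21, adjusted p = 0.576). Pf4 and Ppbp were each higher in mSSCs in 4 pairs and lower in 4, and single pairs of Pf4 differed by -2.88 to 2.45. The 3-letter against the condition-first form, read from sham callus, gave 0 of 7 genes by limma, also unadjusted, and 1 (Itga2b) by the methods' t-test before adjustment, where 2.91% were called, with -1.54 for Pf4 (SE 0.94, adjusted p = 0.501).

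The genes moved together only loosely. Over the 17 arrays the 36 pairs of the 9 genes had Pearson correlations of 0.328 to 0.892, with a median of 0.632. Without the 3-letter sham mSSC array the median was 0.359 and the range -0.114 to 0.806. Treml1 and Gp9, for example, had 0.516 on 17 arrays and 0.776 on 16, and Mmrn1 and Ppbp had 0.414 and -0.03. Among the genes outside the 9, those with the pattern most like their mean over 17 arrays were Mrvi1 (r = 0.955), Prkcq (r = 0.88) and Klrd1 (r = 0.877). Over 16 arrays they were Mcm5 (r = 0.937), E330020D12Rik (r = 0.932) and Tk1 (r = 0.916), and the 10 most alike on 17 and on 16 arrays shared 0 genes.

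A list of 40 other platelet and megakaryocyte genes had a probe set for 36 and a test for 30. Its mean signal was 8.35 to 9.44 on callus arrays, 9.39 to 9.67 on 4 uninjured arrays and 10.16 on the 3-letter sham mSSC array. In sham callus against sham uninjured bone 10 of 30 fell, where 10.1% of all genes were called lower, and 0 rose, with a median of -1.48, among them Plek (-5.79, adjusted p = 0.00109), a kinase substrate of platelets and leukocytes, and Nfe2 (-4.60, adjusted p = 0.00683), a transcription factor of platelet release. Itgb3, the partner chain of Itga2b, fell as well (-1.92, adjusted p = 0.0108). The other 7 were Srgn, Nbeal2, Rasgrp2, Fli1, Prkar2b, P2rx1 and Fermt3, with -1.83 to -3.94. All 10 rest on the 3-letter sham mSSC array of uninjured bone, and the list was not read without that array. In callus of unstated surgery 7 of 30 fell, where 12.5% of all genes were called lower, and 2 rose, with Fli1 (-3.92, adjusted p = 0.00053) and Nbeal2 (-1.95, adjusted p = 0.000899), which is needed for alpha granules, among those that fell, and Gng11 (2.42, adjusted p = 0.000431) and Rab27b (2.42, adjusted p = 0.00486) as those that rose, where 12.7% of all genes were called higher. Rasgrp2, Angpt1, Fermt3, F5 and P2ry12 made up the rest of those that fell. In callus of conflicting labels against OVX uninjured bone 0 fell and 2 rose, Cd9 and Gng11, where 4.05% of all genes were called lower and 9.12% higher. The smallest adjusted p by limma among the 30 was 1 in OVX against sham callus, 1 in OVX + E2 against OVX callus and 0.246 in OVX against sham uninjured bone. On the 3-letter sham mSSC array 12 of the 36 genes were higher than on every other array, and 24 were not. Of the 12, 3 led by at least 1 log2 unit (F2rl2, Trpc6 and Tubb1, picked after their values were seen). None of these 3 was tested. Of the 30 list genes tested, 0 were among the 14 tested genes that led there by at least 1 log2 unit. How many of all genes, tested or untested, were highest there was not counted. Gata1, the master regulator of megakaryocytes and red cells, was 10.42 there, against up to 11.75 on callus and 11.17 on other uninjured arrays. Tubb1, the beta tubulin of platelets, stood at 8.40 on the 3-letter sham mSSC array, against at most 7.10 on callus and 6.18 on other uninjured arrays. F2rl2, a thrombin receptor of platelets, stood at 9.29, against the floor on all callus arrays and at most 6.81 on other uninjured arrays. Neither was tested, being above the filter on too few arrays.

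Markers of other cells were read beside the platelet genes. Ptprc, which encodes the CD45 that the sort left out, ran from 6.58 to 13.53 on the 12 callus arrays (median 9.67), against 13.79 to 14.74 on the 5 uninjured arrays. A list of 4 leukocyte genes averaged 9.86 to 12.96 on 3-letter callus arrays, against 13.59 to 13.92 on 3-letter uninjured arrays, and 11.41 to 12.63 against 13.70 to 13.83 on population-first arrays. A list of 10 erythroid genes averaged 8.80 to 11.41 on 3-letter callus, against 11.91 to 12.33 on 3-letter uninjured arrays, and 8.01 and 12.25 against 7.27 and 12.30 on population-first arrays. Of the leukocyte genes 4 of 4 fell in sham callus, where 10.1% of all genes were called lower. That count rests on the 3-letter sham mSSC array of uninjured bone. In callus of unstated surgery 3 of 4 fell, where 12.5% were called lower, and in callus of conflicting labels 1 of 4, where 4.05% were. Of 9 erythroid genes tested 0 were called by limma in any of these 3 comparisons (smallest adjusted p = 0.0636, 0.692 and 0.493). Their values moved all the same. All 9 were lower in sham callus (median -4.18) and in callus of conflicting labels (median -1.30). In callus of unstated surgery 6 were higher and 3 lower (median 0.46). Skeletal stroma genes, 14 in all, averaged 11.8 to 12.3 on callus arrays, against 8.24 to 11.02 on uninjured arrays. No leukocyte gene was at the floor on any array, and at most 2 erythroid and 2 skeletal stroma genes were. On the 3-letter sham mSSC array the mean ranked 1 of 17 for erythroid and for leukocyte genes. It ranked 2 for neutrophil, T cell, mast cell and basophil, and hematopoietic progenitor genes, and 3 for B cell genes. For macrophage genes it ranked 5, for endothelial genes 7 and for skeletal stroma 15. Pf4, which macrophages also express, had r = 0.624 with the mean of 12 macrophage genes over 17 arrays and 0.757 over the 12 callus arrays. With the mean of 8 B cell genes Pf4 had r = 0.753 over 17 arrays and 0.531 over the callus arrays. The part of these cells in the platelet gene results was not tested.

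**Figure D4:**
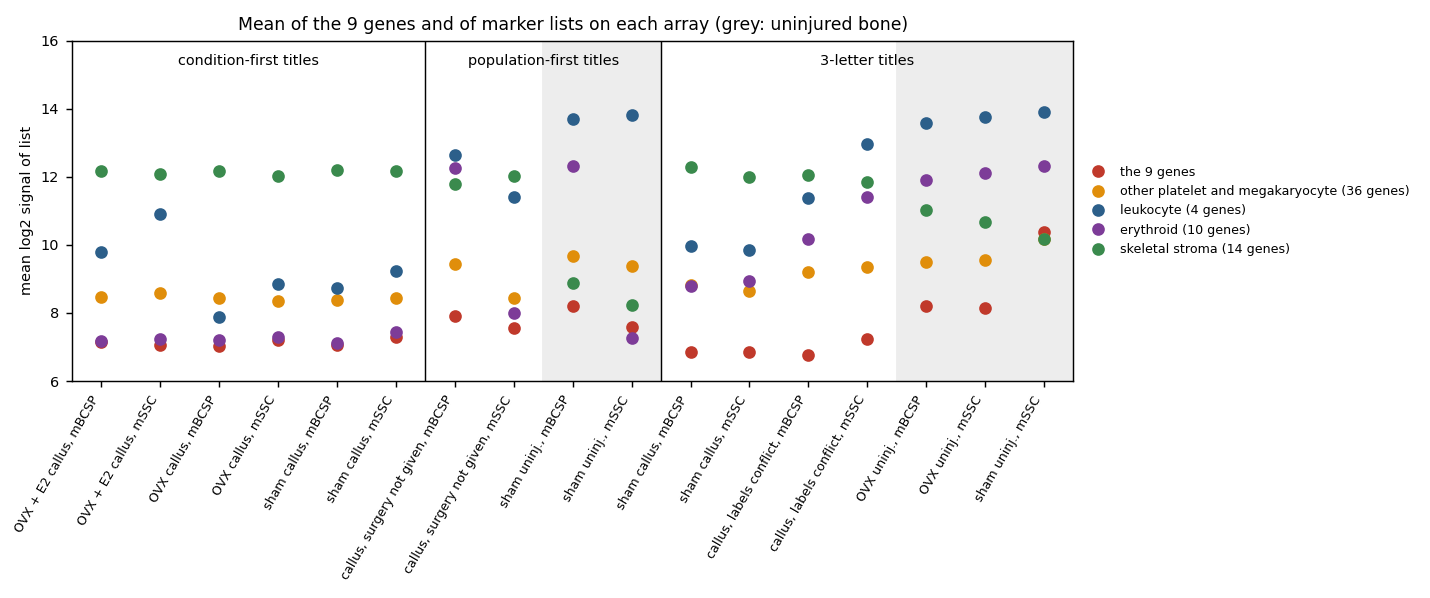
Mean log2 signal (vertical axis) of the 9 genes and of 4 marker lists on each of 17 arrays (horizontal axis), split by title form and with uninjured bone in grey. The mean of the 9 genes was 10.37 on the sham mSSC array of uninjured bone with the 3-letter title and 6.76 to 8.22 on the other 16, while leukocyte genes averaged 13.59 to 13.92 on the 5 uninjured arrays.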

How the data were processed

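RNA of double-sorted mSSCs and mBCSPs was hybridized to 17 Affymetrix mouse arrays. By the study's methods RNA was extracted on RNeasy Micro columns, amplified in 2 rounds, and the array data passed through dChip and Gene Expression Commons. The submitters' processing notes name MAS5, so which tool made the values is not settled. The deposited table gives a log2 signal for each of 45101 probe sets on every array. Control probe sets (64), those of several symbols (932) and those of none (9160) were left out.

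Signals were returned to a linear scale, quantile normalized, floored at the 20th percentile and logged again (floor log2 5.95). The probe set of highest mean stood for a gene. A gene was tested if 2 or more arrays reached the 40th percentile, in 1 limma fit (version 3.58.1, R 4.3.3; lmFit and eBayes with trend) with terms for group, population and title form, 10 coefficients and 7 residual degrees of freedom. Groups came from the labels. The number of arrays limits the precision. The fit was tested on simulated data. These held no spread between title forms, so they cannot show how that spread bears on the calls. Alternatives changed the normalization, floor, filter, probe set, form term, placing of arrays of unsettled surgery, moderation and test (the methods' t-test, on the same values), and every array was in turn omitted. All 9 genes were named, and of the list of other platelet genes those called, while Tubb1, F2rl2, Trpc6 and Gata1 were chosen after their values were seen. The genes and lists were chosen with earlier results of these data known. Sequences are from RefSeq, build GRCm38.p6.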

Additional observations from a re-analysis of the deposited data

Results flagged for a closer look

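Ppbp in sham callus had 1 array far from the others. The condition-first mSSC array stood at 6.77, and the other 3 stood at 6.09, 6.16 and 6.19, so that the gap to the nearest was 0.858 of the whole range of the 4 arrays. Chance gives such a gap in about 1 of 20 groups of 4 like values. These 4 arrays differ in population and title form, so that rate need not hold here. Mmrn1, at the floor on all 4, could not be assessed, and none of the remaining genes had such a gap in sham callus.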

How the results depend on the processing

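The count of platelet genes called in sham callus against sham uninjured bone was 6. It was 3 without the title form term, 3 with the form as a random block, 2 without the term and without the 3-letter sham mSSC array of uninjured bone, and 2 after adjustment and 3 before it by the methods' t-test. With no filter it was 8, adding Gp5 and Gp6. Over single arrays left out it was 6 to 7, and it could not be fitted without the 3-letter sham mSSC array. In callus of unstated surgery the count of 1 became 0 by the methods' t-test after adjustment, and was 1 to 3 over arrays left out. There Ppbp and Pf4, at 1.17 and 1.08, stood at -1.03 and -0.41 without the form term, at -0.65 and -0.19 with it as a random block, and at -1.14 and -0.50 by the methods' t-test, and over arrays left out Ppbp ran from 0.28 to 2.06 and Pf4 from -0.66 to 2.82. In OVX against sham uninjured bone the count of 2 became 1 on the deposited values, with a median shift, with no floor, with the probe set of widest range, with every probe set, with eBayes without a trend, in a fit without the callus of conflicting labels, without the form term, with it as a random block and by the methods' t-test before adjustment, and 0 with the filter at the 60th percentile and by that t-test after adjustment. With no filter the 2 called were Gp6 and Treml1, and with the floor at the 30th percentile Ppbp made 3. It was 0 to 3 over arrays left out. Ppbp, Pf4 and Gp9 there turned to 1.35, 0.52 and 0.24 without the form term, to 0.54, 0.067 and 0.19 with it as a random block, to 1.24, 0.43 and 0.29 by the methods' t-test, and to 3.56, 2.01 and 0.38 without the term and the 3-letter sham mSSC array. Gp9 also turned to 0.070 in a fit without the callus of unstated surgery, and ran from -0.12 to 0.070 over arrays left out. In callus of conflicting labels the count of 2 became 1 with no filter, 0 without the form term, 0 with it as a random block, and 0 after adjustment and 6 before it by the methods' t-test, and was 1 to 4 over arrays left out. The interaction of OVX and injury gave 1 gene with the conflicting arrays counted as OVX, 1 without the form term and the 3-letter sham mSSC array, and 0 to 2 over arrays left out. The t-test before adjustment gave 2 genes in OVX against sham callus and 1 between title forms. Pf4 in OVX + E2 against OVX callus was -0.13 to 1.42 over arrays left out. All other counts stayed at 0. Counts over all genes moved too, over alternatives and arrays left out. In sham callus against sham uninjured bone 3533 became 2154 to 6541, in callus of unstated surgery 3659 became 7 to 6490, and in callus of conflicting labels 1911 became 10 to 4039. In OVX against sham uninjured bone 21 became 0 to 1866, in OVX against sham callus 0 became 0 to 618, in OVX + E2 against OVX callus 3 became 0 to 716 and against sham callus 3 became 0 to 645. The interaction went to 2 to 429, against 4, the title form to 0 to 1980, against 422, and the populations to 0 to 397, against 0. The cause of each shift was not tested.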
